A study of Astyanax mexicanus with 96 samples.

Results

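Sham surgery at 6 h was compared with no surgery in the heart ventricle of surface fish (SF), the river population of *Astyanax mexicanus* (Mexican tetra). The libraries were chosen by their labels alone: 5 ventricles taken 6 h post sham (6 hps) and 3 uninjured ventricles, 8 of the 96 ventricle libraries of the study, each from 1 fish. In the sham operation the fish was anaesthetised with MS-222, the body wall was cut at the level of the heart, the ventricle was exposed and it was touched with a probe at room temperature, so that all steps of the cryo-injury operation were made except the freezing. All fish were 2 years old by the study's methods and without transgene or mutation in the labels. The other groups used here for comparison were SF ventricles at 1 and 3 days post sham (dps, 5 each) and 6 h post cryo-injury (hpci, 5), and the blind Pachón cavefish (PC) of the same species, uninjured (3) and at 6 hps (5). Whether uninjured fish were anaesthetised, and the hour of day at which each heart was taken, are not given in the sources used here.

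A sham operation wounds skin, muscle and pericardium and handles the heart while leaving the muscle unfrozen. Wounded tissue classically passes through immediate early transcription factors within minutes, then cytokines, acute phase proteins and the entry of neutrophils within hours, and matrix remodelling later. Anaesthesia and handling raise cortisol in fish, whose receptor switches on metabolic genes and members of the circadian clock. Growth signals raise the making of ribosomes, which starts in the nucleolus, and a rise in secreted proteins loads the endoplasmic reticulum and its chaperones.

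Read depth was similar in both groups. Total counts were 1209241 to 1891764 in the uninjured and 1478294 to 2146878 in the sham libraries (exact permutation p = 0.357, n = 3 and 5), within the range of 672292 to 2586602 over all 96. A single read equalled 0.575 to 0.982 CPM (counts scaled to library size), which limits all values near 1 CPM. Libraries correlated at r = 0.906 to 0.938 within the uninjured, 0.901 to 0.940 within the sham and 0.834 to 0.880 between the groups, over 5435 genes of at least 10 CPM. Of the 30 or 31 genes that separated the populations in the other libraries, 30 lay on the SF side in each of the 8. Cardiomyocyte markers summed to 81536 to 97863 CPM uninjured and 70805 to 113321 CPM after sham, and neural markers to at most 15.7 CPM. Erythroid markers, mainly globins, summed to 7347 to 11353 CPM uninjured and to 9670 to 46637 CPM after sham, with sham replicates 3 (46637 CPM) and 5 (30744 CPM) above the rest. Their part in the results was not tested.

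Of 18763 genes tested, 1264 (6.74%) were called at 6 hps against uninjured, with 643 (3.43%) higher and 621 (3.31%) lower. A gene was called when its adjusted p, from edgeR's quasi-likelihood test with Benjamini-Hochberg adjustment, was under 0.05 and its fold change above 2. Without adjustment 4027 genes had p under 0.05. Over all genes tested the log2 change had a median of 0.02. Changes were often large, since 269 of the higher and 280 of the lower genes moved over 4-fold and 114 and 168 over 8-fold. Low abundance, a mean of under 10 CPM, was found in 236 of the higher and 277 of the lower genes, against 13328 of the 18763 tested. The median of the mean CPM was 14.4 for the higher, 12.9 for the lower and 2.25 for all genes tested. In terms of single libraries, all 5 sham values lay above all 3 uninjured values for 847 genes (4.51% of those tested) and below them for 941 (5.02%). This separation held for 387 of the 643 genes called higher and for 391 of the 621 called lower. The fitted log2 changes below are adjusted for a factor of unwanted variation, whereas CPM values are not, so that the ratio of the CPM can depart from the fitted change.

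The count of calls depended on that factor and on the controls. The factor overlapped between the groups, at 0.066 to 0.157 (mean 0.112) in the uninjured and 0.107 to 0.260 (mean 0.188) in the sham libraries. With 2 factors in place of 1, 266 genes were called (163 higher and 103 lower), of which 130 were among the 1264. The second factor itself separated the groups, at -0.168 to -0.115 in the uninjured and -0.027 to 0.037 in the sham libraries. A filter of at least 10 counts in 3 libraries came with a factor of its own. That factor also separated the groups, at -0.216 to -0.135 in the uninjured and -0.116 to -0.019 in the sham libraries. Changes under that filter thus cannot be credited to low counts alone. Without uninjured replicate 3, 678 genes were called, 518 of them among the 1264. Genes were named by a rule based on fold change and on gene lists, and 41 more after their values had been seen. Of the 160 named genes 156 were called, of which 29 kept the call in every alternative fit and 127 lost it in 1 or more. With the fit with 2 factors set aside, 57 kept it in each of the others. Without each library in turn 83 kept it. A fit without a value for a gene was not counted as a loss.

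**Figure D1:**
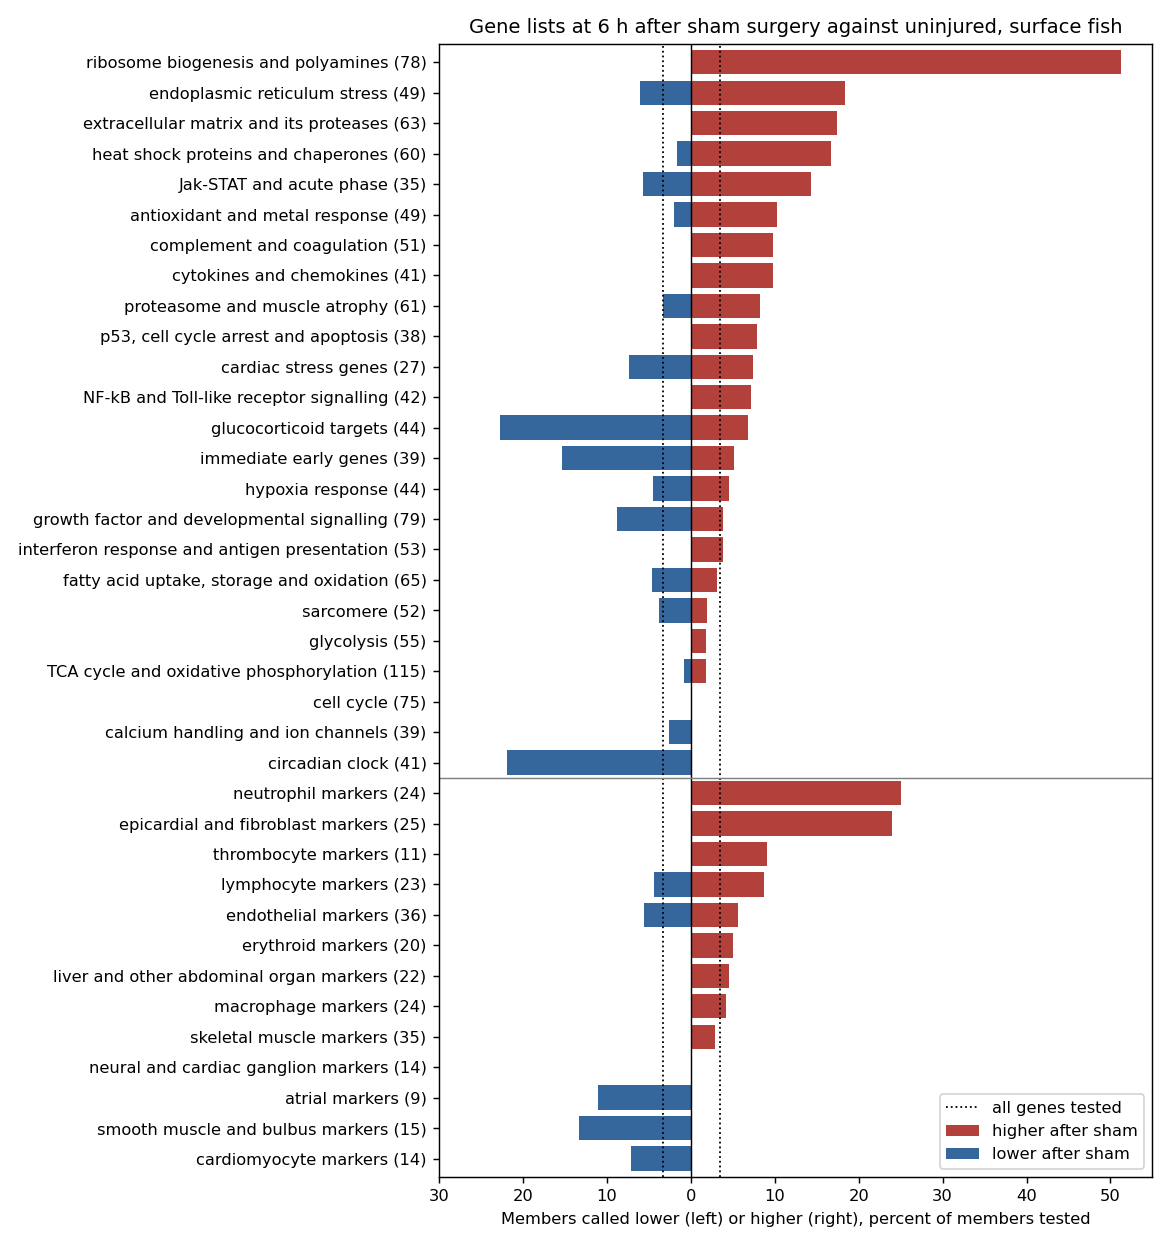
Share of each gene list called at 6 h after sham surgery against uninjured in surface fish, in percent of members tested (number in brackets), higher to the right in red and lower to the left in blue; functional lists stand above the line and cell type markers below it. Dotted lines mark all genes tested, 3.43% higher and 3.31% lower. The list of ribosome biogenesis and polyamines stands farthest to the right with 40 of 78 members.

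The 37 gene lists were chosen with earlier results of these data known, so their counts and order are no independent test. Of the genes described next, nop58, gnl3, gar1, nop2 and npm1a were named after their values had been seen. Among the 37 lists, that of ribosome biogenesis and polyamines, below called the ribosome biogenesis list, had the largest share of called members. Of its 78 members tested 40 rose and 0 fell, and its median log2 change was 1.35 against 0.02 for all genes. Among all genes tested 3.43% rose and 3.31% fell, shares that stand beside the list counts below as well. For 44 members of the ribosome biogenesis list every sham library lay above every uninjured library. Ribosome biogenesis proteins work in the nucleolus, where ribosomal RNA is copied, cut, modified and packed with ribosomal proteins. The core protein of box C/D snoRNPs, which guide methylation of ribosomal RNA, is encoded by nop58 (chromosome 10, 8229001 to 8239003, minus strand, Mexican tetra 2.0 build). It was measured at 87.5, 104 and 109 CPM in the uninjured and 470, 475, 526, 594 and 428 CPM in the sham ventricles, a log2 change of 2.23 (SE 0.24, adjusted p = 1.44e-11). The groups did not overlap, and the lowest sham value was about 4 times the highest uninjured one.

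Other nucleolar genes moved with it. Nucleostemin, a nucleolar GTPase of growing cells encoded by gnl3, rose from 64.7, 53 and 85.1 CPM to 276, 292, 339, 385 and 217 CPM (log2 change 1.75, SE 0.31, adjusted p = 2.13e-05). The U3 snoRNP protein gene rrp9 was at 5.23, 6.87 and 3.15 CPM uninjured and at 70.2, 25.8, 30.8, 47.1 and 33.9 CPM after sham (log2 change 3.26, SE 0.47, adjusted p = 2.11e-07). Sham replicate 1 was the highest for rrp9, and all 5 sham values of both genes exceeded the uninjured ones. Further members with a role in early cleavage of the precursor were wdr75, with 3 reads in all uninjured and 98 in all sham libraries (17.3-fold, 95% counting interval 5.76 to 85.5), and utp20 (log2 change 2.89). The pseudouridine synthase of H/ACA snoRNPs, dkc1, rose by 3.10 on the log2 scale from a mean of 1.11 CPM, although its gene model overlaps several others on the same strand. Its partner gar1 rose from a mean of 28.5 to 111 CPM. The ribosomal RNA methyltransferase gene nop2 rose from a mean of 26.7 to 134 CPM, and both kept the call without each library in turn.

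Nucleophosmin, an abundant histone and ribosome chaperone encoded by npm1a, changed less, from 168, 128 and 190 CPM to 397, 261, 297, 375 and 414 CPM (log2 change 1.05, adjusted p = 0.000322). Without uninjured replicate 2 or sham replicate 1 or 5 its log2 change was 0.86, 0.99 and 0.93, under the fold threshold. The log2 change of utp20 was 2.47 (adjusted p = 0.149) without uninjured replicate 3 and 2.52 (adjusted p = 0.0931) without uninjured replicate 1. The list held 20 higher members without uninjured replicate 3 and 2 with 2 factors, where nop58 had a log2 change of 0.88. A gene from the lymphocyte list belongs here by its product: cd3eap encodes a subunit of RNA polymerase I, the enzyme that copies ribosomal RNA, and not a T cell receptor chain. It rose from 9.8, 11.8 and 11.8 CPM to 48.2, 45.3, 55.8, 70.7 and 38.4 CPM (log2 change 1.77, adjusted p = 0.000416; 1.24 and 0.099 without uninjured replicate 3).

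**Figure D2:**
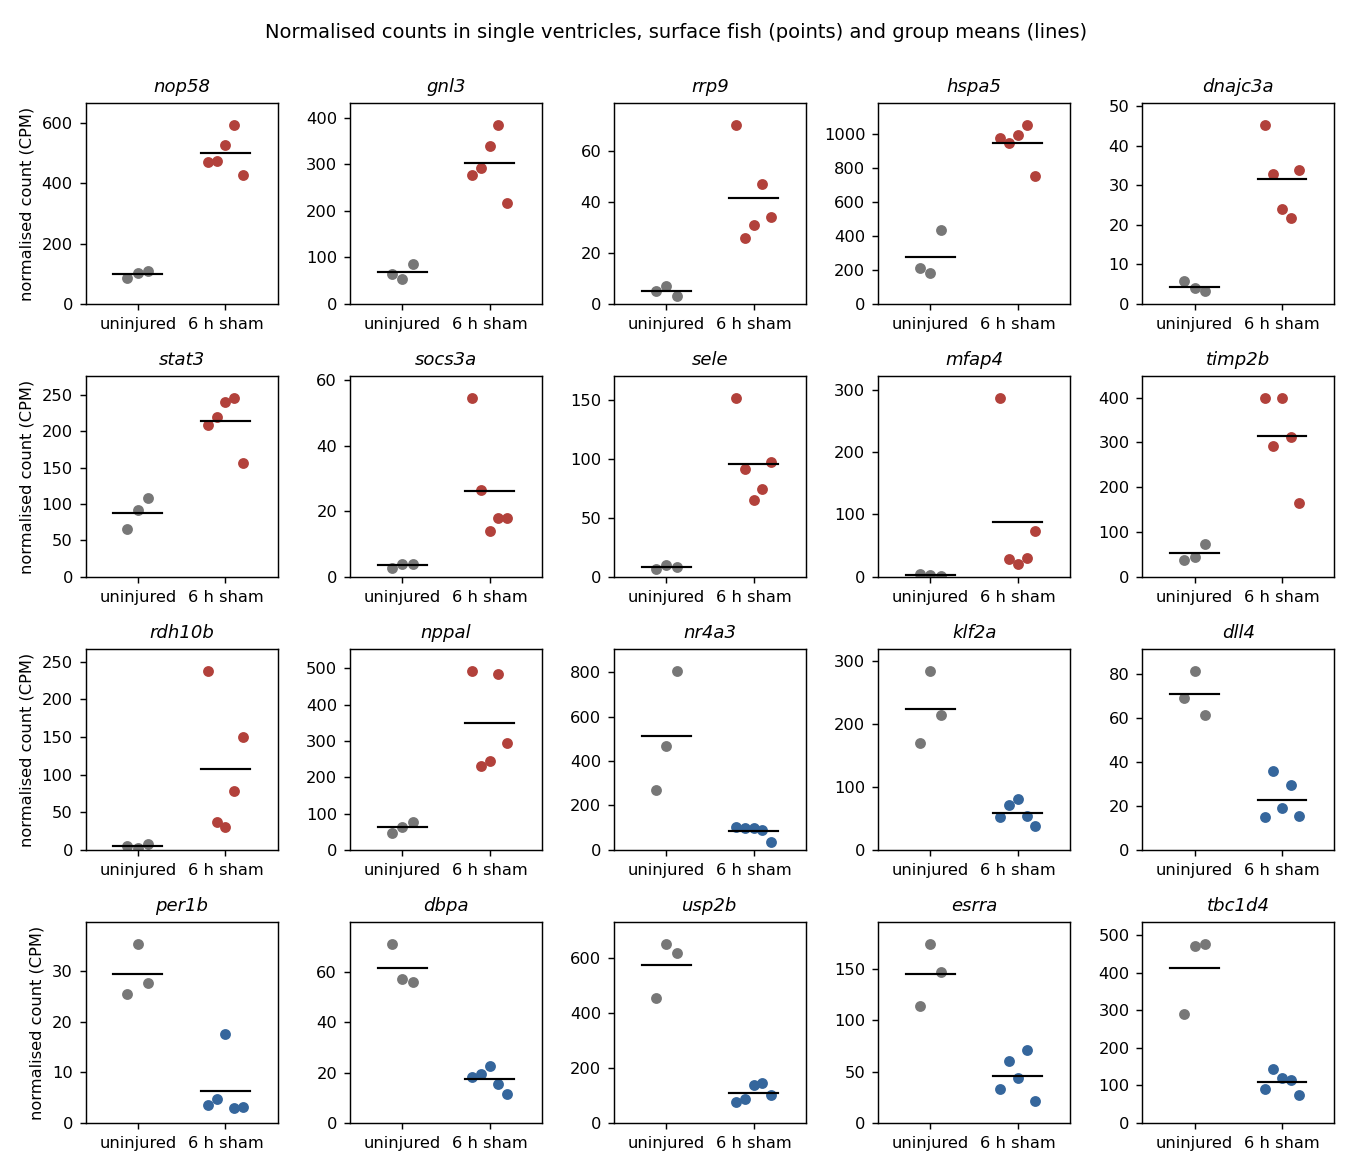
Normalised counts (CPM) of 20 genes in single surface fish ventricles, 3 uninjured (grey) and 5 at 6 h after sham surgery (red where the gene was called higher, blue where lower), with lines at the group means. All panels start at 0, and the groups do not overlap in any of them, from nop58 (87.5 to 109 against 428 to 594 CPM) to tbc1d4 (291 to 478 against 73.5 to 145 CPM).

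Chaperones of the endoplasmic reticulum and the cytosol rose as well. Of 49 genes of endoplasmic reticulum stress 9 rose and 3 fell (median log2 change 0.48), and of 60 heat shock proteins and chaperones 10 rose and 1 fell (median 0.51). With 2 factors 1 gene of the first list rose and 0 fell (median -0.10), and 2 of the second rose and 1 fell. The main chaperone of the endoplasmic reticulum, BiP, is encoded by hspa5, which was at 212, 181 and 435 CPM uninjured and at 977, 944, 995, 1054 and 754 CPM after sham (log2 change 1.77, SE 0.31, adjusted p = 2.76e-05). Its co-chaperone gene dnajc3a rose from 5.88, 3.93 and 3.15 CPM to 45.4, 32.8, 24.1, 21.8 and 33.9 CPM (log2 change 3.18, SE 0.46, adjusted p = 2.81e-07). Both genes separated the groups in full, while dnajc3a overlaps a gene on the other strand.

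Members of the same folding machinery that rose were creld2 (2.05 on the log2 scale), PDIA6 (1.96), a protein disulphide isomerase, hyou1 (1.42), an Hsp70 relative of the organelle, and calr3b (1.15), a calreticulin. For hyou1 the log2 change was 1.27 (adjusted p = 0.0549) without uninjured replicate 3. For calr3b it was 0.76 with at least 10 counts in 3 libraries, 0.82 (adjusted p = 0.0897) in a fit of the groups compared and -0.09 with 2 factors. The gene of the cell death factor CHOP, ddit3, which belongs to another branch of the response, went the other way, from 91.4, 80.5 and 66.9 CPM to 16.3, 24.2, 42.4, 42 and 32.6 CPM (log2 change -1.75, adjusted p = 0.000103). For ddit3 the log2 change was -0.91 with at least 10 counts in 3 libraries and -1.05 (adjusted p = 0.287) with 2 factors, without a call in either. In the cytosol the constitutive Hsp70 gene hspa8 rose from 166, 132 and 184 CPM to 302, 503, 496, 484 and 430 CPM (log2 change 1.31, SE 0.26, adjusted p = 0.000213), with a near copy of the same name that could share its reads. Genes of Hsp70 and Hsp90 partners rose too, namely hspa4b (1.99), ahsa1b (1.47), ptges3b (1.71) and DNAJA4 (2.37), and the log2 change of ahsa1b was 1.08 (adjusted p = 0.0709) without uninjured replicate 3. That of ptges3b was 0.89 with at least 10 counts in 3 libraries, under the fold threshold. DNAJA4 was not uniform, at 31.2, 29.9 and 21.7 CPM in sham replicates 1, 4 and 5 but 6.25 and 4.16 CPM in replicates 2 and 3, against at most 5.23 CPM uninjured. The single member that fell, dnajb4, an Hsp40 partner of Hsp70, went from 45.1, 55 and 44.9 CPM to 9.22, 20.3, 22.5, 18.4 and 12.8 CPM (log2 change -2.08, adjusted p = 3.08e-05).

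Among 61 genes of the proteasome and of muscle atrophy 5 rose and 2 fell, against 2 and 2 without the factor and 0 and 1 with 2 factors. The proteasome subunit genes psma3 and psmd6 rose by 1.68 and 1.43 on the log2 scale, but overlapped, with sham replicates 2 and 3 at 12.5 and 7.49 CPM for psma3 within the uninjured 3.15 to 15.7 CPM. Of the antioxidant list 5 of 49 rose and 1 fell, and without the factor 1 rose and 1 fell. The peroxiredoxin gene prdx1 was at 24.8, 32.4 and 13.4 CPM uninjured and 31.9 to 51.6 CPM after sham, so that the groups overlapped (log2 change 1.58; 0.77, adjusted p = 0.263, without the factor). Haem oxygenase, hmox1a, had 21.7 CPM in sham replicate 5 and 0 to 5.83 CPM in the other 4. Its log2 change of 2.58 was 0.89 (adjusted p = 0.742) without that library and 2.3 and 2.43 (adjusted p = 0.132 and 0.146) without uninjured replicates 2 and 3. Of 38 genes of p53 and cell death 3 rose, against 3.43% of all genes. The clearest was mdm2, the ubiquitin ligase that p53 induces and that removes p53, at 7.19, 8.84 and 3.94 CPM uninjured and 32.6, 62.5, 37.5, 45.4 and 42.8 CPM after sham (log2 change 2.97, SE 0.37, adjusted p = 5.50e-09). The cell cycle inhibitor gene cdkn1a overlapped, with sham replicates 1, 4 and 5 at 152, 114 and 122 CPM and replicates 2 and 3 at 28.1 and 20.8 CPM, below the uninjured 40.3 to 43.3 CPM. Its log2 change of 1.34 (adjusted p = 0.018) lost the call without sham replicate 1 (1.06) or 4 (1.16) or uninjured replicate 2 (1.4).

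Genes of the Jak-STAT pathway and of the acute phase, through which interleukin-6 type cytokines act, changed at both receptor and target level. In this list 5 of 35 genes rose and 2 fell (median log2 change 0.34), and of 41 cytokines, chemokines and receptors 4 rose and 0 fell (median 0.59). The Jak-STAT counts were 2 and 2 in the groups compared and 0 and 1 with 2 factors. The cytokine median was 0.01 without the factor, 0.10 with 2 factors (1 higher) and -0.22 with at least 10 counts in 3 libraries, where 3 of 26 rose and 1 fell. The shared signalling receptor gene il6st (gp130) was at 67.3, 48.1 and 73.2 CPM uninjured and 146, 202, 140, 195 and 120 CPM after sham (log2 change 1.3, SE 0.22, adjusted p = 1.51e-05). The receptor gene lifrb rose from 9.14, 5.89 and 7.09 CPM to 48.9, 18, 18.3, 33.3 and 30.7 CPM (log2 change 2.57, SE 0.35, adjusted p = 5.30e-08). All sham values of both receptors were above the uninjured ones, and il6st overlaps a gene on the other strand.

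The transcription factor downstream of these receptors, stat3, rose from 65.3, 91.3 and 108 CPM to 208, 220, 240, 246 and 157 CPM (log2 change 1.21, adjusted p = 0.000231). Its feedback inhibitor gene socs3a went from 2.61, 3.93 and 3.94 CPM to 54.6, 26.6, 14.1, 17.8 and 17.9 CPM (log2 change 3.45, SE 0.65, adjusted p = 0.00011). Sham replicate 1 was the highest for socs3a and sham replicate 5 the lowest for stat3, with no overlap of the groups in either. Another inhibitor of cytokine receptors, cishb, had 0 reads in the 3 uninjured and 25 in the 5 sham libraries, an at least 4.42-fold rise against a floor of 3 reads over the group. The kinase gene pim1, a STAT target, rose from a mean of 40.1 to 97.5 CPM (log2 change 1.18; 1.02, adjusted p = 0.0766, without uninjured replicate 2). Haptoglobin, an acute phase protein that binds free haemoglobin, is encoded by hp. The hp count rose from 1.31, 3.93 and 1.58 CPM to 34.7, 10.2, 31.6, 25.9 and 41.6 CPM (log2 change 3.98, SE 0.77, adjusted p = 0.000169). Its call was lost with 2 factors (3.06, adjusted p = 0.098). In contrast jak2a fell by 1.23 on the log2 scale, but lost the call without any 1 of the 8 libraries other than sham replicate 4 (log2 change -1.22 to -0.85).

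Of the ligands, il11a, a gp130 cytokine, was at 23.5, 5.89 and 5.51 CPM uninjured and 169, 64.1, 35, 82.8 and 34.5 CPM after sham (log2 change 2.2, adjusted p = 0.0234). Its call was lost without uninjured replicate 2 (1.68) or 3 (1.18) or sham replicate 1 (1.43) or 3 (1.91), while the groups did not overlap. The chemokine gene ccl34a.3 rose from 10.5, 2.95 and 1.58 CPM to 72.3, 129, 63.3, 53.5 and 88.2 CPM (log2 change 4.52, SE 0.74, adjusted p = 4.66e-06), and a second gene carries its symbol. Most other cytokine genes did not pass the test. In the list of NF-kB and Toll-like receptor signalling 3 of 42 genes rose and 0 fell, against 3.43% and 3.31% of all genes. In that list 1 rose without uninjured replicate 2 or 3 or with 2 factors. The decoy receptor gene TNFRSF11B (osteoprotegerin) had 3 reads in all uninjured and 89 in all sham libraries, a ratio of 15.7 (95% counting interval 5.22 to 77.8). The NF-kB adaptor gene traf4a had 0 and 44 reads, an at least 7.79-fold rise. Of 53 interferon and antigen presentation genes 2 rose and 0 fell, against the same shares of all genes, with a median log2 change of -0.19.

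Markers of neutrophils, the first leukocytes to enter a wound, were higher after sham, but those that define the cell type were nearly absent. Of 24 markers 6 rose and 0 fell (median log2 change 1.72). The count was 1 of 20 (median 0.50) with at least 10 counts in 3 libraries, 1 of 24 with 2 factors and 9 without uninjured replicate 3. The summed level of the markers was 99.2 to 172 CPM uninjured and 352 to 702 CPM after sham. Much of this sum was timp2b, an inhibitor of metalloproteinases that other cells make as well, at 38.5, 45.2 and 73.2 CPM uninjured and 399, 291, 400, 313 and 166 CPM after sham (log2 change 2.62, SE 0.34, adjusted p = 1.12e-08). The gelatinase gene mmp9 was at 1.31, 0 and 1.58 CPM and at 77.3, 7.03, 1.66, 6.32 and 12.8 CPM (log2 change 5.24, adjusted p = 9.18e-05). Sham replicate 1 stood far above the rest for mmp9, and sham replicate 3 was next to the uninjured level. Without sham replicate 1 its log2 change was 3.63 (adjusted p = 0.0198), and with the filter of 10 counts it was 3.09 (adjusted p = 0.0513).

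The NADPH oxidase subunit gene cyba rose from 3.92, 3.93 and 7.09 CPM to 14.9, 26.6, 15.8, 32.8 and 19.8 CPM (log2 change 2.94), and adam8a, a membrane protease of leukocytes, by 2.17. The membrane-type metalloproteinase gene mmp25b rose from 2.61, 0 and 3.15 CPM to 11.3, 7.03, 3.33, 6.32 and 10.9 CPM (log2 change 2.76), and its log2 change was 1.89 (adjusted p = 0.122) without the factor. That of adam8a was then 1.51 (adjusted p = 0.0765). With the filter of 10 counts in 3 libraries the log2 changes were 1.37 for cyba (adjusted p = 0.0502), 0.79 for adam8a (adjusted p = 0.34) and 1.19 for mmp25b (adjusted p = 0.335). By contrast myeloperoxidase (mpx) had 0 reads in all 8 libraries, lyz at most 11 in a library and the G-CSF receptor gene csf3r at most 7. Fewer cells of a type and less RNA per cell cannot be told apart in whole ventricles.

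Summed macrophage markers overlapped between the groups, at 394 to 604 CPM uninjured and 293 to 762 CPM after sham, and 1 of 24 rose. This was mfap4, a marker of fish macrophages, at 5.23, 2.95 and 0.788 CPM uninjured and 287, 28.1, 20.8, 29.9 and 72.9 CPM after sham (log2 change 5.31, SE 0.84, adjusted p = 2.36e-06). Sham replicate 1 was the highest here as for mmp9 (log2 change without it 4.08), and all 5 values exceeded the uninjured ones, but 9 genes carry this symbol and could share reads. Other tested copies did not share the rise. ENSAMXG00000039543 had 6, 5 and 11 reads uninjured and 4, 0, 0, 0 and 1 after sham, and ENSAMXG00000037154 had 4, 2 and 4 and then 1, 3, 0, 1 and 1. ENSAMXG00000041310 had 7, 1 and 9 reads uninjured and 9, 1, 1, 7 and 138 after sham, high in sham replicate 5 only. Of 23 lymphocyte markers ighd and cd3eap rose and lck, a T cell kinase, fell. The lck count went from 7.84, 14.7 and 18.1 CPM to 0.709, 2.34, 0.832, 3.45 and 2.56 CPM (log2 change -2.31). A second gene with the symbol ighd did not share the rise, with 8, 0 and 0 reads uninjured and 0 in each sham library. The immunoglobulin gene IGHM had 8, 19 and 10 reads uninjured and 6, 0, 1, 3 and 2 after sham, without a call. The call of lck was lost without uninjured replicate 2 (-2.11) or 3 (-1.27) or sham replicate 1 (-2.08) or 3 (-1.90), and that of ighd without uninjured replicate 2 (2.88, adjusted p = 0.0603) or 3 (2.29, adjusted p = 0.194).

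Single genes of the vessel lining and the endocardium moved in opposite directions. Of 36 endothelial markers 2 rose, sele among them, and 2 fell, near the 3.43% and 3.31% of all genes tested. The summed level of these markers was 1389 to 1797 CPM uninjured and 1037 to 1510 CPM after sham. E-selectin, the adhesion molecule that activated endothelium puts up for leukocytes, is encoded by sele (chromosome 3, 73986649 to 73995389, plus strand). It was at 6.53, 9.82 and 8.66 CPM uninjured and 152, 91.4, 64.9, 74.7 and 97.8 CPM after sham (log2 change 3.74, SE 0.57, adjusted p = 1.06e-06). The lowest sham ventricle had more than 6 times the highest uninjured value. The call of sele was lost with 2 factors (1.94, adjusted p = 0.142). On the other side klf2a, from the list of immediate early genes, the transcription factor that blood flow sustains in quiescent endothelium, fell from 170, 284 and 214 CPM to 52.5, 71.9, 80.7, 53.5 and 37.7 CPM (log2 change -2.33, SE 0.36, adjusted p = 1.05e-06). The Notch ligand gene dll4, of arterial and endocardial cells, fell from 69.2, 81.5 and 61.4 CPM to 14.9, 35.9, 19.1, 29.3 and 15.3 CPM (log2 change -2.30, SE 0.40, adjusted p = 2.21e-05). Also lower were hey1 and her6, targets of Notch that were named after their values had been seen. The hey1 count was 31.4, 41.2 and 18.1 CPM uninjured and 8.51, 14.8, 10.8, 8.62 and 8.95 CPM after sham (log2 change -1.87), and her6 fell by 1.48 on the log2 scale. Neither dll4 nor hey1 overlapped between the groups, but with a filter of 10 counts in 3 libraries their log2 changes were -1.03 (adjusted p = 0.0694) and -1.19 (adjusted p = 0.0814), that of her6 was -0.85 (adjusted p = 0.0552), and hey1 had -1.66 (adjusted p = 0.0681) without uninjured replicate 2.

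Of 51 complement and coagulation genes 5 rose and 0 fell (median log2 change 0.49), against 2 and 1 without the factor (median 0.00), 2 and 0 with 2 factors (-0.07) and 3 and 2 of 30 with the filter of 10 counts in 3 libraries (-0.17). The terminal complement gene c7b rose from 13.7, 1.96 and 7.88 CPM to 106, 48.4, 58.3, 86.8 and 65.9 CPM (log2 change 3.62, SE 0.64, adjusted p = 2.40e-05). An inhibitor of tissue factor and plasmin, tfpi2, rose from 4.57, 3.93 and 1.58 CPM to 103, 22.7, 15.8, 29.9 and 44.8 CPM (log2 change 3.83, SE 0.58, adjusted p = 7.70e-07). Both separated the groups, with sham replicate 1 the highest in each. Factor B of the alternative pathway, cfb, had 1 read in all uninjured and 39 in all sham libraries, a ratio of 20.7 (95% counting interval 3.50 to 838), and 2 genes share the symbol. The call of cfb was lost without the factor (log2 change 4.02, adjusted p = 0.115) and with 2 factors (3.45, adjusted p = 0.364). It was also lost with the filter of 10 counts in 3 libraries (2.74, adjusted p = 0.267).

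Matrix genes and genes of the epicardium, the cell layer on the heart surface that is activated by injury, were called in the upward direction. Of 63 genes of the matrix and its proteases 11 rose and 0 fell (median log2 change 0.34), and of 25 epicardial and fibroblast markers 6 rose and 0 fell (median 0.57). The matrix list held 6 higher genes without the factor, where 1 fell, and 6 without uninjured replicate 3, 7 without sham replicate 1, 3 with the filter of 10 counts in 3 libraries and 1 with 2 factors. The epicardial list held 2 higher genes without the factor or without uninjured replicate 3, 3 without uninjured replicate 2 and 0 with that filter or with 2 factors. Epicardial markers summed to 1593 to 2295 CPM uninjured and 2203 to 3174 CPM after sham. Fibronectin, a provisional matrix protein made by epicardium after injury in zebrafish, is encoded by fn1b, which was at 20.2, 28.5 and 32.3 CPM uninjured and 47.5, 103, 58.3, 60.4 and 68.4 CPM after sham (log2 change 1.74, SE 0.39, adjusted p = 0.00147). With the filter of 10 counts in 3 libraries its log2 change was 0.91 (adjusted p = 0.109). The call of wt1b, the transcription factor of activated epicardium, rested on 8 reads in the uninjured and 57 in the sham libraries (log2 change 2.35) and was lost without uninjured replicate 2 (2.18) or 3 (1.93) or sham replicate 1 (2.02).

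Retinoic acid is a signal that epicardium and endocardium of regenerating fish hearts release. Its genes were not tested as a list, and rdh10b, rdh10a and cyp26b1 were named after their values had been seen, whereas aldh1a2 belongs to the epicardial list. Retinol dehydrogenases make retinaldehyde, and rdh10b (chromosome 17, 21096615 to 21101176, minus strand) rose from 4.57, 2.95 and 7.88 CPM to 238, 37.5, 30.8, 77.6 and 150 CPM (log2 change 4.37, SE 0.62, adjusted p = 1.75e-07). Its paralogue rdh10a rose from 20.9, 21.6 and 5.51 CPM to 209, 124, 91.6, 203 and 104 CPM (log2 change 2.99, SE 0.56, adjusted p = 8.62e-05). No sham ventricle reached down to the uninjured range for either gene, although they varied up to 8-fold among themselves for rdh10b. The next enzyme in the path, aldh1a2, was at 35.9, 31.4 and 7.88 CPM uninjured and 97.9, 30.5, 47.4, 40.2 and 38.4 CPM after sham, so that the groups overlapped (log2 change 1.73, adjusted p = 0.000635). The retinoic acid degrading enzyme gene cyp26b1 fell by 1.84 on the log2 scale, from 24.8, 27.5 and 76.4 CPM to 9.22, 14.8, 27.5, 13.2 and 14.1 CPM, also with overlap. Leaving out uninjured replicate 3, the log2 changes of rdh10a and cyp26b1 were 2.08 (adjusted p = 0.0564) and -1.28 (adjusted p = 0.223), and without the factor that of aldh1a2 was 1.01 (adjusted p = 0.0911). With the filter of 10 counts in 3 libraries aldh1a2 had 0.38 (adjusted p = 0.485) and cyp26b1 -0.98 (adjusted p = 0.146).

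A pair of neighbours on chromosome 6 rose together. The natriuretic peptide gene nppal (41374650 to 41377504, plus strand), a hormone gene of stretched heart muscle, was at 47.7, 62.8 and 77.2 CPM uninjured and 494, 230, 245, 485 and 295 CPM after sham (log2 change 2.34, SE 0.28, adjusted p = 1.12e-09). The next gene on the same strand, ENSAMXG00000031663 (41389557 to 41390768), has no symbol in the annotation used. It was at 69.2, 52 and 57.5 CPM uninjured and 2126, 773, 1012, 2150 and 1455 CPM after sham (log2 change 4.61, SE 0.43, adjusted p = 2.63e-14). Among genes named here it had the highest level after sham of those that rose, and sham replicates 1 and 4 were the highest for both neighbours.

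Other genes of cardiac stress moved in both directions, 2 of 27 up and 2 down. The LIM protein gene fhl2a rose from 259, 188 and 220 CPM to 399, 409, 453, 1133 and 398 CPM (log2 change 1.26). Without sham replicate 4, the highest, its log2 change was 0.87 (adjusted p = 0.0675), and it was also not called without uninjured replicate 2 (1.1, adjusted p = 0.0692) or 3 (1.1, adjusted p = 0.116). The calcineurin feedback gene rcan1a fell from 109, 115 and 39.4 CPM to 31.2, 53.1, 40.8, 19 and 27.5 CPM (log2 change -1.35, SE 0.29, adjusted p = 0.000861), with overlap through uninjured replicate 3. The telethonin gene tcap, of the sarcomeric Z-disc, rose from 59.4, 67.8 and 106 CPM to 262, 674, 330, 339 and 108 CPM (log2 change 1.53, adjusted p = 0.00845). It lost the call without uninjured replicate 2 (1.3) or 3 (1.37) or sham replicate 2 (1.17).

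Several of the highest fold changes belonged to genes without a read in the uninjured ventricles. In all, 33 of the 643 higher genes had 0 reads in the 3 uninjured and 77 of the 621 lower genes 0 in the 5 sham libraries. cebp1, a C/EBP factor of myeloid cells in zebrafish, had 23 reads after sham, an at least 4.07-fold rise against a floor of 3 reads over the group. The call of cebp1 was lost without uninjured replicate 3 (log2 change 5.95, adjusted p = 0.0603). Calls on fewer reads hung on single libraries. That of chordc1a, an Hsp90 partner gene with 19 reads, was lost without any 1 library other than sham replicates 2 and 5 (log2 change 4.71 to 5.02). That of the activin subunit gene inhbaa, with 15 reads, was lost without any 1 uninjured replicate or sham replicate 1 (5.22 to 6.26), and that of the splicing factor gene srsf9, with 14 reads, without any 1 uninjured replicate or sham replicate 4 (4.85 to 5.27). The lipid droplet gene plin2 had 1 read uninjured and 61 after sham, in all 5 libraries (32.4-fold, 95% counting interval 5.60 to 1300), and lost the call without uninjured replicate 1 (log2 change 5) or 3 (5.56).

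In the other direction, six4b, a homeobox gene, fell at least 11.3-fold, from 18 reads in the uninjured to 0 in the sham libraries. Other genes with 0 reads after sham were trim101 (17 reads uninjured, at least 10.7-fold lower), bmpr1bb, a BMP receptor gene (15 reads, at least 9.42-fold lower), krt18a.2 (12 reads), qpctlb (12 reads) and si:ch211-216b21.2 (28 reads, at least 17.6-fold lower). The ErbB ligand gene nrg1, a mitogen of cardiomyocytes in zebrafish, had 11 reads in the uninjured and 0 in the sham libraries (at least 6.91-fold lower). Its call was lost without uninjured replicate 2 (log2 change -4.97, adjusted p = 0.102) or 3 (-6.88, adjusted p = 0.058), and that of bmpr1bb without uninjured replicate 3 (-6.75, adjusted p = 0.0676). The receptor gene erbb2 fell from a mean of 51.7 to 20.8 CPM (log2 change -1.36, adjusted p = 0.000425). Of the 79 growth factor and developmental genes 3 rose and 7 fell in all, with 4 lower without uninjured replicate 3 and 0 called with 2 factors.

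Abundant immediate early genes were lower at 6 h than in uninjured ventricles. Of 39 tested 2 rose and 6 fell (median log2 change -0.24), and their summed level was 2431 to 2867 CPM uninjured and 1139 to 1431 CPM after sham, without overlap. The nuclear receptor gene nr4a3 (chromosome 3, 6366937 to 6411607, minus strand) fell from 268, 466 and 807 CPM to 102, 96.9, 98.2, 91.4 and 37.1 CPM (log2 change -3.04, SE 0.40, adjusted p = 1.12e-08). Its relative NR4A1 on chromosome 22 fell from 162, 203 and 171 CPM to 14.9, 26.6, 10.8, 25.9 and 33.9 CPM (log2 change -3.08, SE 0.42, adjusted p = 5.21e-08). A second gene of that name, nr4a1, was at 120, 73.7 and 18.9 CPM uninjured and 39.7, 4.69, 1.66, 17.8 and 12.8 CPM after sham (log2 change -2.17), with overlap and no call without uninjured replicate 1 (-1.56, adjusted p = 0.107). In a fit of the groups compared nr4a1 had -0.49 (adjusted p = 0.601), and with 2 factors -1.22 (adjusted p = 0.583).

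Further members that fell were klf2a, csrnp1b (log2 change -1.95), a nuclear protein gene, and dusp2 (-1.93), a phosphatase gene that switches off MAP kinases. For dusp2 the values were 236, 269 and 213 CPM uninjured and 30.5, 43, 46.6, 93.7 and 83.8 CPM after sham. Of the 2 members that rose, the AP-1 gene fosl1a had 2 reads in all uninjured libraries and 6.66 to 7.47 CPM in each sham ventricle (13.5-fold, 95% counting interval 3.56 to 115). The log2 change of fosl1a was 2.86 (adjusted p = 0.136) without uninjured replicate 3. The direction of the median of this list was positive, 0.01, without uninjured replicate 1.

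Circadian clock genes fell in all calls of their list. Of 41 tested 0 rose and 9 fell (median log2 change -0.55), and the summed level was 1130 to 1585 CPM uninjured and 578 to 855 CPM after sham. The genes that fell were the period genes per1a, per1b and per2, cry4 (log2 change -1.61), the Rev-erb gene nr1d2a (-1.02), the repressor CIART (-1.69) and the PAR bZIP factors dbpa, tefb (-1.19) and hlfb, which carry clock output. Of these dbpa was at 71.2, 57 and 55.9 CPM uninjured and 18.4, 19.5, 22.5, 15.5 and 11.5 CPM after sham (log2 change -1.88, SE 0.31, adjusted p = 5.41e-06). For per1b the values were 25.5, 35.4 and 27.6 CPM and 3.55, 4.69, 17.5, 2.87 and 3.2 CPM (log2 change -2.52, SE 0.49, adjusted p = 0.000151). Both genes separated the groups, and sham replicate 3 was the nearest to the uninjured level for each.

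The calls of this list leaned on uninjured replicate 3, without which 3 genes were lower, while with 2 factors 0 of 41 were called. Without that replicate the log2 changes were -1.13 for cry4, -1.1 for CIART, -0.89 for per1a, -0.84 for tefb, -0.61 for nr1d2a and -1.59 for hlfb, all short of the threshold. Uninjured replicate 1 carried the calls of per2 (-1.28 without it), hlfb (-1.44) and nr1d2a (-0.98), and the sham replicates carried those of per2 and CIART (-1.69 and -1.43 without replicate 5) and of nr1d2a (-0.97 and -0.94 without replicates 3 and 4). The operation and the hour of day at which hearts were taken cannot be told apart for these genes.

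Of 44 genes that the glucocorticoid receptor induces 3 rose and 10 fell (median log2 change -0.73), per1a and per1b among the latter. Without uninjured replicate 3 the list had 3 higher and 2 lower genes (median -0.32), 5 lower without uninjured replicate 1 or sham replicate 4, 6 lower without sham replicate 3, and with 2 factors 2 higher and 0 lower (median -0.11). The classical target TSC22D3 (GILZ) fell from 44.4, 44.2 and 33.9 CPM to 14.9, 23.4, 19.1, 14.9 and 20.5 CPM without overlap (log2 change -1.26, adjusted p = 0.0261), but lost the call without any 1 library other than sham replicates 2 and 5 (-1.37 to -1.11). The mTOR inhibitor gene ddit4 fell from 49, 37.3 and 101 CPM to 15.6, 9.37, 7.49, 23 and 14.1 CPM (log2 change -1.84, SE 0.43, adjusted p = 0.0024) without overlap. The zinc finger genes zbtb16a and zbtb16b, also targets, rose. For zbtb16a the log2 change was 1.51, and 1.26 (adjusted p = 0.0665) without uninjured replicate 1. The count of zbtb16b went from 2.61, 4.91 and 7.88 CPM to 34, 30.5, 55.8, 33.3 and 16 CPM (log2 change 2.30, SE 0.55, adjusted p = 0.00286). The transcription factor gene klf15 (log2 change -2.60) rested on 38 and 13 reads. Leaving out uninjured replicate 3 gave log2 changes of -0.61 for ddit4 (adjusted p = 0.673) and -2.16 for klf15 (adjusted p = 0.257). The klf15 gene also lost the call without uninjured replicate 1 (-2.31) or sham replicate 4 (-2.25).

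Other abundant genes that fell were usp2b, from the list of the proteasome and atrophy, and esrra and tbc1d4, both named after their values had been seen. The deubiquitinase gene usp2b, an output of the clock in mammals, fell from 454, 653 and 620 CPM to 75.9, 85.9, 138, 147 and 103 CPM (log2 change -2.76, SE 0.33, adjusted p = 8.23e-10). The nuclear receptor gene esrra, which drives mitochondrial genes in muscle, fell from 114, 175 and 147 CPM to 33.3, 60.2, 44.1, 70.7 and 21.7 CPM (log2 change -2.15, SE 0.31, adjusted p = 1.75e-07). The Rab regulator gene tbc1d4 (AS160), which acts in insulin-dependent glucose uptake, fell from 291, 471 and 478 CPM to 90.1, 145, 119, 114 and 73.5 CPM (log2 change -2.03, SE 0.26, adjusted p = 7.27e-09). In all 3 genes every sham ventricle was below every uninjured one.

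Of further genes that fell, insig1 came from the list of fatty acid genes, in which 2 of 65 rose and 3 fell, fbxo32 from that of the proteasome and atrophy, and trim69 was named after its values had been seen. The sterol sensor gene insig1 went from 49.6, 39.3 and 65.4 CPM to 19.9, 12.5, 4.16, 8.62 and 9.59 CPM (log2 change -2.29, SE 0.40, adjusted p = 2.22e-05). The ubiquitin ligase gene trim69 fell from 111, 57.9 and 129 CPM to 4.26, 32, 8.32, 9.77 and 9.59 CPM (log2 change -3.37, SE 0.52, adjusted p = 1.73e-06), with sham replicate 2 above the other 4. The atrophy ligase gene fbxo32 (atrogin-1) was at 156, 144 and 363 CPM uninjured and 87.9, 123, 61.6, 67.8 and 65.9 CPM after sham (log2 change -1.45, adjusted p = 0.0228). Without uninjured replicate 3 its log2 change was -0.20, and it was not called without sham replicate 3 (-1.14) or 5 (-1.37) either.

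Contractile and energy genes were seldom called, with counts that depended on the fit. Of 52 sarcomere genes 1 rose and 2 fell (median log2 change -0.31), a share near the 6.74% of all genes, of 39 genes of calcium handling and ion channels 0 rose and 1 fell, and of 115 genes of the citric acid cycle and oxidative phosphorylation 2 rose and 1 fell (median -0.17). Glycolysis had 1 of 55 higher and 0 lower (median -0.17). Without the factor the medians were 0.22 for oxidative phosphorylation, 0.07 for glycolysis and 0.00 for sarcomere genes. With the filter of 10 counts in 3 libraries 9 of 109 genes of oxidative phosphorylation rose and 0 fell (median 0.66), 6 of 44 of glycolysis rose and 0 fell (0.65) and 3 of 38 sarcomere genes rose and 1 fell (0.43). With 2 factors 11 genes of oxidative phosphorylation rose and 1 fell (median 0.31), 8 of glycolysis rose and 0 fell (0.33), and the sarcomere median was 0.47. Without uninjured replicate 3, 1 gene of oxidative phosphorylation rose and 9 fell. Summed levels overlapped, at 117087 to 135993 CPM uninjured and 118712 to 160906 CPM after sham for oxidative phosphorylation and at 67256 to 83107 CPM and 65686 to 100223 CPM for sarcomere genes. The leiomodin gene lmod2a was at 5031, 6377 and 7723 CPM uninjured and 3520, 5917, 4879, 2187 and 2790 CPM after sham, with overlap (log2 change -1.32, adjusted p = 0.00387), and the cardiac transcription factor gene nkx2.5 at 247, 319 and 258 CPM and at 174, 203, 205, 166 and 149 CPM without overlap (log2 change -1.07, adjusted p = 0.000183). Without the factor their log2 changes were -0.72 (adjusted p = 0.207) and -0.61 (adjusted p = 0.0908), and with a filter of 10 counts in 3 libraries 0.07 and 0.01.

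Cell cycle genes were not called. Of 75 tested 0 rose and 0 fell, 56 had a log2 change above 0 and the median was 0.90, with summed levels of 273 to 338 CPM uninjured and 262 to 406 CPM after sham. The replication clamp gene pcna was at 59.4, 50.1 and 34.7 CPM uninjured and 48.2, 75.8, 99.9, 77.6 and 87 CPM after sham (log2 change 0.64, adjusted p = 0.153). The kinase gene cdk4, which licenses entry into the cycle in growing cells and is not on that list, rose from 26.1, 11.8 and 21.3 CPM to 70.2, 100, 106, 116 and 94.6 CPM (log2 change 2.21, SE 0.28, adjusted p = 5.50e-09). Its partner ccnd1 was at 56.2, 61.9 and 64.6 CPM uninjured and 36.9, 49.2, 48.3, 36.8 and 39 CPM after sham (log2 change -0.42, adjusted p = 0.344).

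Markers of other organs were low. Liver, pancreas and gut markers summed to 11.8 to 25.5 CPM uninjured and 13.3 to 45.3 CPM after sham, and 1 of 22 rose. This was CPA1, a carboxypeptidase of the pancreas in mammals, with 3 reads uninjured and 106 after sham (18.8-fold, 95% counting interval 6.25 to 92.4), while 3 genes carry the symbol. Skeletal muscle markers, of the body wall that the operation cuts, summed to 8326 to 11332 CPM and 7155 to 14314 CPM, with 1 of 35 higher. Most of this sum was ckma (mean 5405 CPM uninjured), eno3 (1631 CPM), ckmb (1418 CPM) and pgam2 (657 CPM), enzymes that the heart makes as well. Of genes of fast skeletal muscle fibres pvalb4 had 59 reads in sham replicate 1 and 3 to 12 in the other 7 libraries, tnni2a.4 had 28 and 0 to 5 reads and mylpfb 12 and 0 to 3. Sham replicate 1 was also the highest for mmp9, mfap4, tfpi2, socs3a and rdh10b, whose log2 changes without it were 3.63, 4.08, 3.19, 3.00 and 3.83, all called. The part of body wall muscle in these results was not tested. Of 15 smooth muscle markers 2 fell, among them MYOCD, from 53.6, 64.8 and 102 CPM to 21.3, 39.1, 33.3, 29.9 and 33.9 CPM (log2 change -1.53; -1.20, adjusted p = 0.0986, without uninjured replicate 3).

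**Figure D3:**
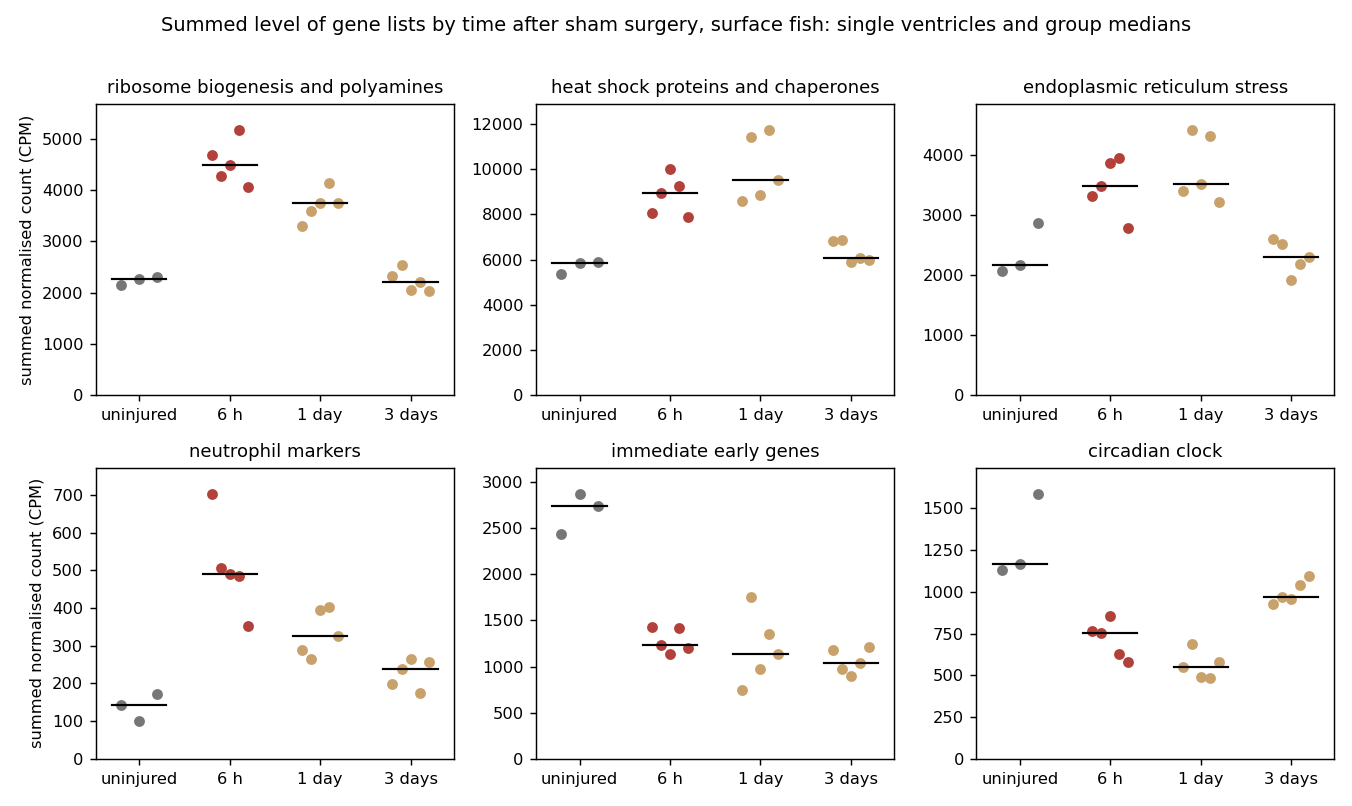
Summed normalised counts (CPM) of 6 gene lists in single surface fish ventricles, uninjured (grey, 3) and at 6 h (red, 5), 1 day and 3 days (tan, 5 each) after sham surgery, with lines at the group medians. The sum of ribosome biogenesis and polyamine genes is 2149 to 2305 CPM uninjured, 4057 to 5167 CPM at 6 h and 2043 to 2547 CPM at 3 days. The sum of immediate early genes stays below the uninjured values at all 3 times.

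The 6 h ventricles were then compared with those at later times after the same operation. At 6 h against 1 dps 243 genes (1.3%) were called, 125 (0.666%) higher and 118 (0.629%) lower at 6 h. Against 3 dps 710 (3.78%) were called, 430 (2.29%) higher and 280 (1.49%) lower. Leaving out the factor turned the balance at 3 dps, with 475 higher and 733 lower. Of the ribosome biogenesis list 1 of 78 members was higher at 6 h than at 1 dps and 26 of 78 higher than at 3 dps, with 0 lower in both. The level of nop58 was 280 to 446 CPM at 1 dps and 95.5 to 145 CPM at 3 dps (log2 change at 6 h against 3 dps 1.89, adjusted p = 4.51e-08). For hspa5 it was 783 to 1241 CPM at 1 dps and 282 to 610 CPM at 3 dps, and neither difference from 6 h passed the test (adjusted p = 1 and 0.0538).

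Several genes of inflammation were higher at 6 h than at 3 dps. Of the neutrophil markers 10 of 24, of the cytokines 8 of 41 and of the Jak-STAT genes 8 of 35 were higher at 6 h than at 3 dps, with 0 lower in each. E-selectin (sele) was at 9.26 to 55.2 CPM at 1 dps and 4.47 to 10.3 CPM at 3 dps, under its 6 h level by log2 changes of 1.90 (adjusted p = 0.00142) and 4.08 (adjusted p = 7.17e-08). The level of socs3a was 7.08 to 27 CPM at 1 dps and 1.68 to 3.41 CPM at 3 dps, and 6 h differed from 3 dps (log2 change 4.42, adjusted p = 7.99e-07) but not past the threshold from 1 dps (0.97, adjusted p = 0.267). For il11a the values were 2.51 to 46.7 CPM at 1 dps and 0 to 0.770 CPM at 3 dps. Both retinol dehydrogenases were lower at 1 dps than at 6 h, rdh10b at 8.77 to 73 CPM (log2 change 1.44, adjusted p = 0.0257) and rdh10a at 12.5 to 130 CPM (1.40, adjusted p = 0.0319). At 3 dps rdh10b was at 2.79 to 6.82 CPM, within the uninjured range or below it.

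Of the genes that fell, some were higher at 3 dps than at 6 h and others were not. The circadian clock list did not return in full at 3 dps, with a sum of 929 to 1094 CPM against 1130 to 1585 CPM uninjured. The usp2b level was 122 to 303 CPM at 1 dps and 416 to 629 CPM at 3 dps, above 6 h at both times (log2 change at 6 h -1.28, adjusted p = 0.00386, and -3.03, adjusted p = 1.86e-08). For dbpa it was 9.40 to 15.3 CPM at 1 dps and 37.7 to 59.3 CPM at 3 dps, where 6 h was lower (-1.61, adjusted p = 0.0021). In contrast NR4A1 stayed at 10 to 27.8 CPM at 1 dps and 10.8 to 32 CPM at 3 dps, and tbc1d4 at 59.2 to 167 and 94.9 to 178 CPM, with no difference from 6 h past the threshold. The flow-regulated klf2a was at 50.8 to 280 CPM at 1 dps, higher than at 6 h (-1.39, adjusted p = 0.00306), and at 40.9 to 69.3 CPM at 3 dps.

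Ventricles at 6 hpci were set beside those at 6 hps, which served as their control, for single named genes. The nop58 count was 471 to 786 CPM at 6 hpci and 428 to 594 CPM at 6 hps (log2 change of cryo-injury against sham 0.29, adjusted p = 0.544). For rdh10b it was 86.3 to 295 CPM and 30.8 to 238 CPM (0.79, adjusted p = 0.358), and neither difference passed the test. Genes that were higher again after cryo-injury were sele, at 284 to 692 CPM (2.23, adjusted p = 8.63e-05), mmp9, at 43.6 to 586 CPM (2.99, adjusted p = 4.96e-05), tfpi2, at 74.6 to 157 CPM (1.26, adjusted p = 0.0396), and ENSAMXG00000031663, at 2071 to 5689 CPM (1.23, adjusted p = 0.0161). The usp2b level was 33.1 to 51.3 CPM, lower than after sham (-1.12, adjusted p = 0.0352).

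Cavefish underwent the same operation, with their own uninjured controls. In PC 956 genes (5.1%) were called at 6 hps, 571 (3.04%) higher and 385 (2.05%) lower. Of the 643 genes called higher in SF, 254 (39.5%) were also called higher in PC, and 594 (92.4%) had the same sign. Of the 621 called lower in SF, 142 (22.9%) were also called lower in PC and 552 (88.9%) had the same sign, with 0 called in opposite directions. These shared genes were 44.5% and 36.9% of those called higher and lower in PC. Signs were not counted over all genes tested, and both changes come from the same fit. The shares of the same sign thus lack a base to be read against. In PC 23 of 78 members of the ribosome biogenesis list rose and 1 fell. Of 24 neutrophil markers 13 rose, and of 49 genes of endoplasmic reticulum stress 14 rose and 1 fell. The nop58 count went from 89.2 to 103 CPM in uninjured PC to 298 to 462 CPM (log2 change 1.88), and that of rdh10b from 2.49 to 5.01 CPM to 30.8 to 393 CPM (5.42). Of the clock genes 2 rose and 2 fell in PC. Of the immediate early genes 2 rose and 4 fell in PC, with a median log2 change of 0.35. Their sum was 977 to 1362 CPM in uninjured PC, below that of uninjured SF, and 726 to 1003 CPM in PC after sham.

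**Figure D4:**
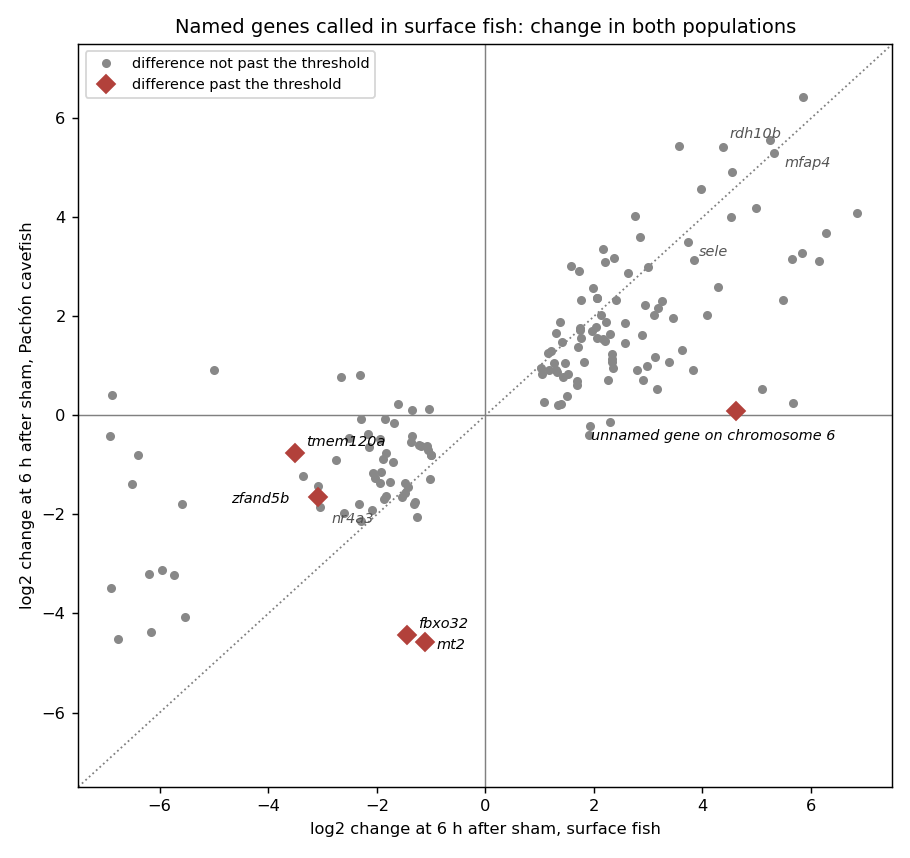
Log2 change at 6 h after sham surgery against uninjured in surface fish (x axis) and Pachón cavefish (y axis) for the named genes called in surface fish, with the line of equal change dotted. Red diamonds mark the 5 of these genes whose change differed between populations past the threshold, and the unnamed gene on chromosome 6 lies at 4.61 in surface fish and 0.09 in cavefish.

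The difference between the populations was tested gene by gene as an interaction. Of 18763 genes 10 (0.0533%) passed, 5 with a higher and 5 with a lower change in SF, while 1740 had an unadjusted p under 0.05. Leaving out each of the 16 libraries in turn gave 6 to 16 genes, and the calls of ENSAMXG00000031663, mt2 and tmem120a were kept in all of these fits. The gene with the smallest p was ENSAMXG00000031663, at 439, 469 and 303 CPM in uninjured PC and 481, 551, 266, 399 and 535 CPM in PC at 6 hps (log2 change 0.09, SE 0.37). Uninjured SF had 52 to 69.2 CPM, below all PC ventricles, and SF after sham had 773 to 2150 CPM, above all of them. The difference of the log2 changes was 4.52 (SE 0.51, adjusted p = 3.79e-10). Its neighbour nppal had a log2 change of 1.13 in PC, and the difference from SF of 1.21 did not pass (adjusted p = 0.192).

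The second by p was mt2, a metallothionein gene that cortisol and metals induce and whose symbol another gene carries, so that reads could be shared. It was at 1248, 337 and 443 CPM in uninjured PC and 74.5, 25.7, 18.1, 28.6 and 52.5 CPM after sham (log2 change -4.58), against 39.3 to 99.2 CPM and 24.3 to 49.9 CPM in SF (-1.11, with overlap, and no call without uninjured replicate 1 or 3 or sham replicate 1, 4 or 5, at -1.16 to -0.90), a difference of 3.47 (SE 0.49, adjusted p = 2.04e-06). The atrophy gene fbxo32 likewise fell further in PC, from 279, 312 and 234 CPM to 9.75, 8.17, 11.9, 21 and 13.5 CPM (log2 change -4.43 against -1.45, difference 2.98, adjusted p = 0.024). After sham all SF ventricles were above all PC ventricles for fbxo32. The call of its difference was lost without SF uninjured replicate 1 or 2, SF sham replicate 2, PC uninjured replicate 3 or PC sham replicate 2 (2.71 to 2.86, adjusted p = 0.0582 to 0.16).

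The opposite held for tmem120a, an adipocyte and nuclear envelope protein gene in mammals. It fell in SF from 248, 458 and 718 CPM to 62.4, 33.6, 37.5, 81.6 and 20.5 CPM (log2 change -3.51, SE 0.37, adjusted p = 6.30e-12). In PC it was at 96.1, 59 and 63.6 CPM uninjured and 85, 49, 31.2, 31.6 and 69.3 CPM after sham (log2 change -0.76, difference -2.75, adjusted p = 0.00536). After sham the populations thus overlapped, and they differed before it. The zinc finger gene zfand5b, of protein turnover, fell in both, in SF from 319, 464 and 1353 CPM to 78, 169, 151, 107 and 66.5 CPM (log2 change -3.09) and in PC from 227, 209 and 283 CPM to 157, 91.7, 105, 107 and 145 CPM (-1.65), with a difference of -1.44 (adjusted p = 0.0419). That difference lost the call without 10 of the 16 libraries, and was -0.86 (adjusted p = 0.408) without SF uninjured replicate 3, the highest.

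Of the other 5 genes, efna1b moved in opposite directions in the populations, ilf3b changed mainly in PC, and dhx57, FILIP1L and lrp1ab were of low abundance. In SF the ephrin gene efna1b was at 38.5, 12.8 and 52.8 CPM uninjured and 63.3 to 132 CPM after sham. It was called higher there (adjusted p = 0.0191), without overlap of the groups. In PC efna1b went from 90.9 to 120 CPM to 47.3 to 93.2 CPM, with overlap. Its log2 change in PC was -0.99 (adjusted p = 0.0341), under the fold threshold and thus not called. The difference for efna1b was 2.08 (adjusted p = 0.00939). The RNA-binding protein gene ilf3b rose in PC from 23.3 to 56.8 CPM to 85.6 to 101 CPM and was at 64.7 to 72.7 CPM and 48.4 to 71.6 CPM in SF (difference -1.32, adjusted p = 0.0419). The helicase gene dhx57 (4.85), FILIP1L (-2.85) and the receptor gene lrp1ab (-4.23), which overlaps a gene on the other strand, had at most 33.4 CPM in any of the 16 ventricles. The differences of dhx57, ilf3b and FILIP1L lost the call without 9, 9 and 11 of the 16 libraries. Those of efna1b (1.71 and 1.97) and lrp1ab (-3.31 and -3.85) lost it without 2 each, SF uninjured replicate 2 for both, PC uninjured replicate 3 for efna1b and PC uninjured replicate 1 for lrp1ab. The test of the difference called 58 genes with DESeq2 and 65 in a fit of the 4 groups alone.

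**Figure D5:**
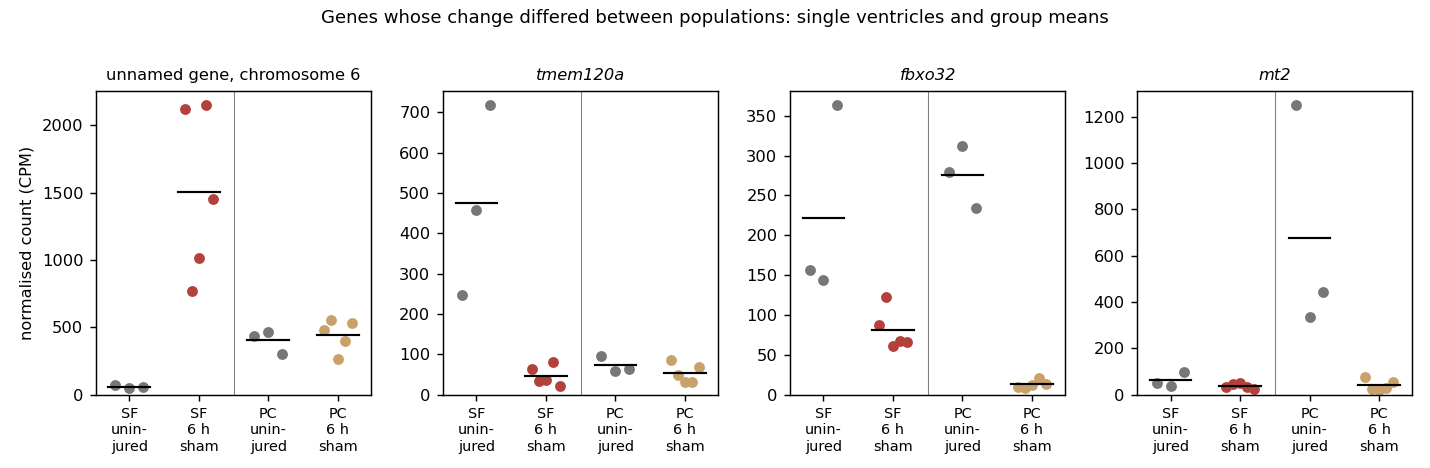
Normalised counts (CPM) of 4 genes whose change at 6 h after sham surgery differed between surface fish (SF) and Pachón cavefish (PC), in single ventricles (3 uninjured and 5 sham in each) with lines at the group means and axes that start at 0. The unnamed gene on chromosome 6 rises in SF from 52 to 69.2 CPM to 773 to 2150 CPM, and mt2 falls in PC from 337 to 1248 CPM to 18.1 to 74.5 CPM.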

How the data were processed

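Ventricle RNA was measured by QuantSeq 3′ mRNA sequencing, which reads the 3′ end of transcripts. The deposited raw counts per gene were made by the authors from reads demultiplexed with bcl2fastq 2.20.0, trimmed with Trim Galore 0.6.4 and aligned with STAR 2.7.6a (submitters' processing notes) to the Mexican tetra 2.0 genome with an Ensembl annotation that the authors had extended. Whether counting used strand is not given in the sources used here, so reads of overlapping genes on opposite strands may not be told apart, and near-identical paralogues may share reads. Symbols came from the deposited tables and positions from the deposited annotation, and the deposited regularised log2 values were not used.

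Of 27420 genes, the 18763 with at least 1 CPM by raw library totals in at least 1 of 96 libraries were tested. The test was that of edgeR 4.0.16 (quasi-likelihood F-test, R 4.3.3). The CPM values printed are read counts scaled to the library's TMM-adjusted total. The model had a coefficient for each of 20 groups and 1 factor of unwanted variation. The factor was computed by the RUVg method from genes of low variation, as in the study's methods. Those methods used DESeq2 and do not state the number of factors, so the use of 1 was a choice made here. Called genes had a Benjamini-Hochberg adjusted p under 0.05 and over 2-fold change, also where direct contrasts (6 h against 1 and 3 dps, and the difference between populations) were tested. The replicates are single ventricles, 1 fish each, with no batch in the labels. Alternatives were DESeq2 1.42.0, 0 or 2 factors, 2 other filters on low counts, the groups compared alone with and without the factor, the replicate number as a block and leaving out each library, for the difference between populations also each PC library, which was added after seeing the data. Genes at 0 in a group were given a floor of 3 reads over the group, and genes with 1 to 3 reads an exact 95% interval of the ratio, which cover counting error only. The exact permutation test of total counts is 2-sided over 56 splits, with 0.0179 as its smallest possible p. The fit was checked on simulated counts with the same spread for all genes and an unwanted factor independent of the groups. That check does not cover a factor that separates the groups. The second factor did so here, as did the factor computed with the filter of 10 counts in 3 libraries. The main factor overlapped between the groups but had a higher mean in the sham libraries. The factor was computed anew for each filter and for each library left out.

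Members and the 37 gene lists were chosen with earlier results of these data known. Named genes were the 12 highest and 12 lowest log2 changes among called genes with a symbol whose groups did not overlap, up to 4 called members of each list by size of change, and, for a list without a call, the 2 members of highest mean CPM. The 41 genes named after their values were seen were nop58, gnl3, npm1a, hspa8, stat3, ccl34a.3, rdh10a, rdh10b, cyp26b1, nppal, nr4a1, esrra, trim69, tmem120a, zfand5b, tbc1d4, ENSAMXG00000031663, mt2, hey1, cdk4, CIART, TSC22D3, adam8a, ahsa1b, calr3b, cry4, csrnp1b, ddit3, dusp2, erbb2, gar1, her6, hspa4b, hyou1, nop2, nr1d2a, per1a, pim1, ptges3b, tefb and zbtb16a.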

Additional observations from a re-analysis of the deposited data

Results flagged for a closer look

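Of the 160 named genes, 14 had 1 of the 5 sham ventricles far from the other 4 (Dixon's test at 95%), where chance alone sets apart about 5% of such groups. Sham replicate 1 was the highest for mfap4 (287 CPM against 20.8 to 72.9 CPM in the others), mmp9 (77.3 against 1.66 to 12.8 CPM), aldh1a2 (97.9 against 30.5 to 47.4 CPM) and kcnip1b (0.709 CPM, a single read, against 0). Sham replicate 5 was the highest for hmox1a (21.7 against 0 to 5.83 CPM), ndrg1a (19.8 against 2.5 to 5.47 CPM), ccl19a.1 (26.2 against 5.47 to 8.62 CPM) and si:ch1073-416d2.3 (14.7 against 0.709 to 4.02 CPM) and the lowest for nr4a3 (37.1 against 91.4 to 102 CPM). Sham replicate 3 was the highest for per1b (17.5 against 2.87 to 4.69 CPM), tefb (216 against 127 to 149 CPM) and creld2 (54.9 against 21.3 to 28.1 CPM), of which per1b and tefb belong to the circadian clock. Sham replicate 4 was the highest for fhl2a (1133 against 398 to 453 CPM) and sham replicate 2 for trim69 (32 against 4.26 to 9.77 CPM).

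In 10 genes the change after sham surgery differed between the populations by edgeR's quasi-likelihood test of the difference itself. The difference of the log2 changes, SF minus PC, was 4.85 for dhx57, 4.52 for ENSAMXG00000031663, 3.47 for mt2, 2.98 for fbxo32 and 2.08 for efna1b. It was -4.23 for lrp1ab, -2.85 for FILIP1L, -2.75 for tmem120a, -1.44 for zfand5b and -1.32 for ilf3b.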

How the results depend on the processing

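The count of 1264 genes at 6 hps fell to 266 with 2 factors and ranged from 678 (without uninjured replicate 3) to 1233 when each library was left out, and the other 7 fits called 919 to 1342. The 956 calls in cavefish fell to 55 with 2 factors and 341 in a fit of the groups compared. The count against 3 dps (710) was 1208 without the factor, 460 with 2 factors, 1283 with at least 10 counts in 3 libraries, 414 in the groups compared and 1166 in these without the factor; the factor and the filter moved the share of higher calls from 60.6% to 39.3% and 45.1%. With 2 factors 61.3% of calls at 6 hps were higher, against 50.9%. The 10 differences between populations were 58 with DESeq2, 26 with the stricter filter, 65 in the groups compared and 68 in these without the factor, and 6 to 13 when each SF library was left out; leaving out the PC libraries, added after seeing the data, gave 6 (without uninjured replicate 3, sham replicate 2 or 5) to 16 (without uninjured replicate 5). Without SF uninjured replicate 2 or sham replicate 1 it was 6. The signs of lmod2a (0.23 with 2 factors, 0.07 with the stricter filter), myoz2b (0.33, 0.16), scn5lab (0.47, 0.06) and nkx2.5 (0.03, 0.01) turned under both, those of fbxo32 (1.35), anxa2a (-0.18), MYOCD (0.17) and calr3b (-0.09) with 2 factors and that of ctss2.1 (-0.09) with the stricter filter. The stricter filter came with a factor of its own that separated the groups, and the causes were not tested. Of 156 called named genes 34 kept the call with 2 factors, 116 without the factor and 95 without uninjured replicate 3. With the stricter filter 86 kept the call, 53 lost it and 5 turned in sign, and the rest had no value. With DESeq2 144 kept it and 0 lost it, and the rest had no value either. With the replicate number as a replicate block 1167 genes were called at 6 hps; same-numbered libraries correlated at 0.12, 0.01 and 0.13 in their deviations, and not every library correlated best with its own number, so the numbers do not pair the fish. Values near 1 CPM rest on single reads.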
